A study of Mus musculus with 6 samples.

Results

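Genes of the Wnt signalling pathway were examined in the cerebral cortex of mouse embryos at E18.5 (embryonic day 18.5). The members were the 41 genes of a list of Wnt ligands, receptors, secreted regulators and intracellular effectors, and 38 of them were found by symbol among the 59484 features of the table. Expression of *Fzd2*, *Fzd7* and *Rnf43* was not analysed here. PolyA+ RNA was sequenced in 3 libraries of wild-type embryos and in 3 libraries of Sam68:Slm2 double knockout (dKO) embryos. The dKO embryos carry constitutive null alleles of *Khdrbs1* and *Khdrbs3*. These are the genes of the RNA binding protein Sam68 and of its paralog SLM2. The mice were kept on the C57BL/6 strain, and the dKO embryos descend from *Slm2*-deficient parents that were heterozygous for *Sam68*. Parents that both lack *Slm2* have no wild-type offspring, so the wild-type embryos came from other litters. Differences between the genotypes therefore cannot be told apart from differences of litter or parents. The question was whether the abundance of Wnt pathway transcripts differs between the genotypes. The labels number the embryos of each genotype but name no litter or sex, so that P-values measure the spread between these samples, which may be technical. Values are normalized counts, that is, reads of a gene divided by a size factor of the library. Reads recovered from these values ran from 32966884 to 39654253 per wild-type library and from 31837922 to 40896541 per dKO library.

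Wnt proteins are secreted lipid-modified ligands that bind Frizzled receptors together with the co-receptors Lrp5 and Lrp6. In the canonical branch, this stops a cytoplasmic destruction complex from marking beta-catenin for degradation, and beta-catenin then acts with transcription factors of the Tcf/Lef family on target genes, several of which encode feedback inhibitors. In the embryonic forebrain the pathway is known for patterning the medial wall and hippocampus from the cortical hem, for regulating progenitor division and for the growth of brain vessels.

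The targeted genes were examined first. *Khdrbs1* had 8231, 8436 and 7974 normalized counts in wild-type libraries 1 to 3 and 114, 197 and 146 in dKO libraries 1 to 3. *Khdrbs3* had 13543, 15215 and 12764 normalized counts in wild-type libraries 1 to 3 and 7059.5, 6349.7 and 6547 in dKO libraries 1 to 3. Every dKO library lay below every wild-type library for both genes, which separates the libraries by genotype as labelled. The log2 fold change was -5.78 for *Khdrbs1* (adjusted p = 1.08e-07 from limma) and -1.05 for *Khdrbs3* (adjusted p = 0.000855 from limma, but 0.0891 with a plain variance model, the highest of the alternatives, whose lowest was 5.93e-24 with DESeq2). Transcripts of *Khdrbs3* thus fell to 48.1% of the wild-type mean but were not absent, and a gene-level value does not show which part of the gene they cover. The labelled tissue was checked against markers of cortical projection neurons, and all 8 of them were present in every library, with *Neurod6* as the most abundant. The libraries numbered 1 in either genotype stood apart, since their deviations from the mean log2 level correlated positively with exonic length across 13974 genes (Spearman correlation 0.22 and 0.31), while the other 4 libraries ranged from -0.22 to -0.10. Wild-type library 3 and dKO library 2 stood apart in some striatal markers, noticed after the values were seen. *Isl1* had 95.6 and 115 normalized counts there and 1.07 to 25.5 in the other 4, and *Drd2* had 134 and 162 against 9.67 to 60.3, whereas *Drd1* was lowest in these 2. Counts are therefore also given without both libraries of either pair.

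No Wnt member passed the adjusted threshold, and the differences described here are small. The main ligand *Wnt7b*, the receptors *Fzd3* and *Fzd8*, the co-receptors *Lrp5* and *Lrp6*, the soluble inhibitor *Sfrp1* and the intracellular or membrane regulators *Znrf3*, *Dvl3* and *Axin1* lay higher in all 3 dKO libraries than in any wild-type library, with log2 fold changes from 0.16 to 0.32. The secreted activator *Rspo2* and the receptor *Fzd4* lay lower in all 3 (log2 fold changes -0.49 and -0.22). The comparison by limma used log2(normalized count + 1) of the 18970 features whose average over the 6 libraries reached 10. Benjamini-Hochberg adjustment covered all of these features, and fold changes on this scale understate the difference of low genes. Of the 38 members with a value, 35 passed this filter and *Wnt3a*, *Wnt8b* and *Dkk1* did not. At an adjusted P under 0.05, 0 of the 35 were called by limma, by edgeR or by DESeq2 on the recovered reads, where limma called 19 of all features (0.1%), edgeR 16 (0.0843%) and DESeq2 207 (1.09%). Leaving out single libraries moved the 19 features to 8, 29 and 10 without wild-type libraries 1, 2 and 3, and to 46, 9 and 7 without dKO libraries 1, 2 and 3. Of the 9 members with an unadjusted P under 0.05, the smallest adjusted p was 0.318 from limma, 0.323 from edgeR and 0.138 from DESeq2, and over the alternatives it ran from 0.138 to 0.739. At an unadjusted P under 0.05 there were 9 members from limma, 10 from edgeR (all features, 11.9%) and 8 from DESeq2 (all features, 11.6%). The 9 members make up 25.7% of the 35, beside 11.5% of all features tested. Of these, 7 were higher in dKO cortex (all features, 4.92%) and 2 were lower (6.58%).

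The genotypes did not overlap in 11 of the 35 members, or 31.4%, beside 16.4% of all features tested. In 9 members every dKO value lay above every wild-type value (all features, 7.89%), and in 2 it lay below (8.48%). The median log2 fold change of the 35 members was 0.042, with 19 positive and 16 negative values, and that of all features tested was 0.0036. The members' median ran from -0.00035 without wild-type library 1 to 0.090 without dKO library 3 when single libraries were left out. Of the members, 33 had estimates within 1.5-fold in either direction, and for 22 members the whole 95% interval lay within it. Without both libraries numbered 1, 0 members were called by limma, 7 had an unadjusted P under 0.05 (all features, 9.37%) and 17 did not overlap (41.1%). Without wild-type library 3 and dKO library 2, 0 members were called by limma, 5 had an unadjusted P under 0.05 (all features, 7.10%) and 20 did not overlap (37.8%). The count of 9 was 5 without wild-type library 3 (all features, 7.35%), 5 without dKO library 1 (11.9%) and 5 without dKO library 3 (6.43%). The count of 11 was 17 without wild-type library 2, where 33.0% of all features did not overlap. The cortex was measured in bulk, where fewer cells that express a gene and less RNA per cell cannot be told apart.

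**Figure D1:**
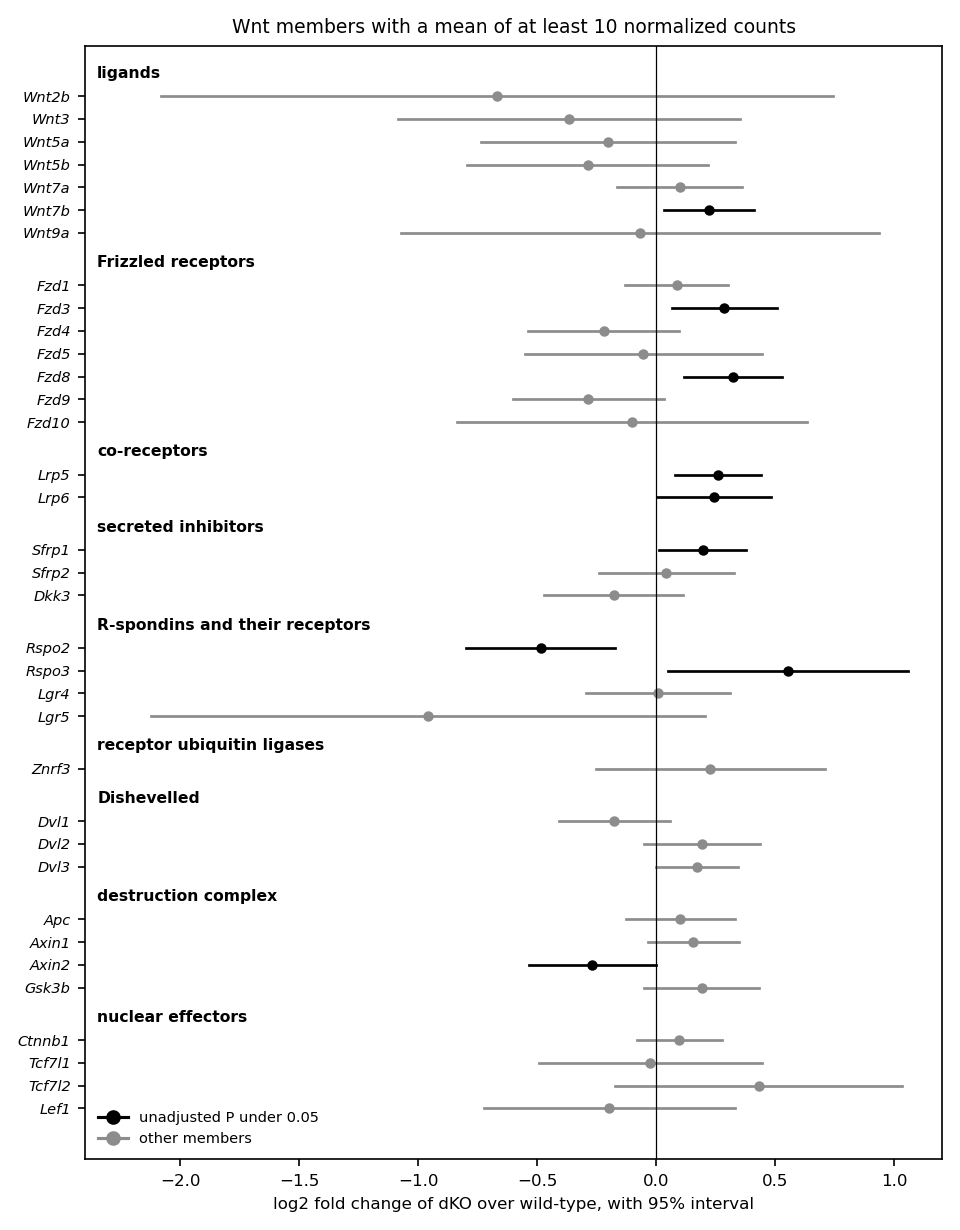
Log2 fold change of dKO over wild-type cortex (horizontal axis) for the 35 Wnt members tested, ordered by role, with points for limma estimates and lines for 95% intervals. Black marks the 9 members with an unadjusted P under 0.05, whose smallest adjusted p from limma was 0.318.

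Among the ligands, *Wnt7b* dominated. Per kb of annotated exon, *Wnt7b* had a level of 2216 ± 63.9 normalized counts in wild-type cortex and *Wnt7a* one of 624 ± 102 (SD, n = 3 each). Both are made by neural cells and act on the endothelium of growing brain vessels. *Wnt7b* held between 72.9% and 80.3% of the summed level per kb of the 9 ligands in each library, and *Wnt7a* between 17.4% and 23.6%. Each of the other 7 ligands held at most 1.28% in any library.

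*Wnt7b* (GSMG0014342, chromosome 15 from 85535445 to 85581821, minus strand, build mm10) had 10493, 11012 and 11056 normalized counts in wild-type libraries 1 to 3 and 11890.2, 11997 and 14177 in dKO libraries 1 to 3. All 3 dKO libraries lay above all wild-type libraries, and dKO library 3 was the highest. The difference did not pass the adjusted threshold (log2 fold change 0.22, standard error 0.085, adjusted p = 0.393 from limma), and the estimate was 0.14 without dKO library 3 and 0.13 under quantile normalization. *Wnt7a* averaged 1979.6 ± 325 (SD) across the 3 wild-type libraries and 2104 ± 168 across the 3 dKO libraries, with overlapping genotypes and a log2 fold change of 0.098 (95% interval -0.17 to 0.36). The other 5 ligands tested had negative estimates, from -0.67 for *Wnt2b*, a ligand of the cortical hem, to -0.069 for *Wnt9a*, with adjusted p from 0.642 to 0.965 from limma. *Wnt5a* and *Wnt5b*, which act mainly without beta-catenin, had -0.20 and -0.29, and *Wnt3* had -0.37. All of these overlapped between the genotypes. The sign for *Wnt9a* turned in 5 of the 21 alternatives, to 0.079 with quantile normalization and at most to 0.37. It also turned for *Wnt2b* without dKO library 3 (0.030) and for *Wnt3* without both libraries numbered 1 (0.013).

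The hem ligands *Wnt3a* and *Wnt8b* were at the edge of detection. *Wnt8b* had 14 reads in wild-type library 3 and 22 in dKO library 2, or 12.3 and 23.0 normalized counts. It had 0 reads in the other 4 libraries, which allows up to 2.72 to 3.48 normalized counts at 3 reads per library, for counting error only. Among features with 1 to 10 reads, 68.4 to 72.0% in each library had an even number, so that both reads of a pair may have been counted, in which case these limits are too low. *Wnt3a* had 6, 4 and 2 reads in wild-type library 3, dKO library 2 and dKO library 3, and 0 elsewhere. Neither ligand was tested, and no fold is given for them. Wild-type library 3 and dKO library 2 held the 2 highest values for *Wnt2b*, *Wnt3a*, *Wnt7a*, *Wnt8b* and *Fzd5*, 5 of the 38 members (all features with reads, 5.91%), while dKO libraries 1 and 3 did so for 7 (7.68%) and wild-type libraries 1 and 2 for 6 (5.66%). The part of the dissected region in this was not tested.

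**Figure D2:**
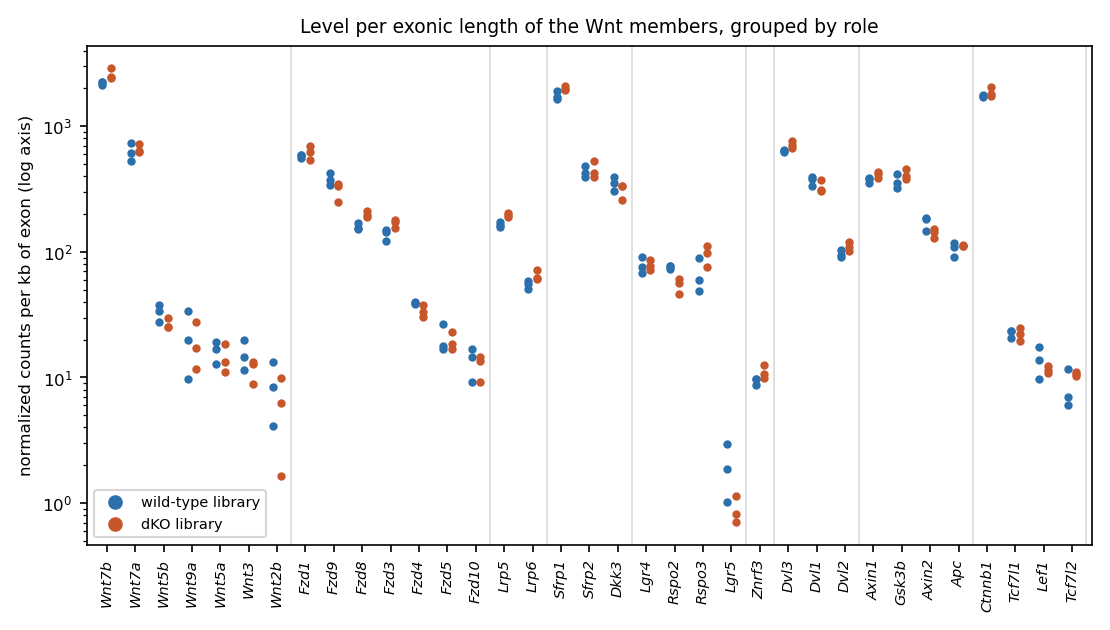
Normalized counts per kb of annotated exon (vertical log axis) of the 35 members in each of the 6 libraries, grouped by role and ordered by wild-type level, with blue for wild-type and orange for dKO. *Wnt7b* at 2216, *Sfrp1* at 1753 and *Ctnnb1* at 1734 had the highest wild-type means, and *Lgr5* at 1.94 the lowest.

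Of the Frizzled receptors, which bind Wnt ligands through an extracellular cysteine-rich domain, 7 were tested. *Fzd1* had the highest wild-type level per kb, at 579 ± 16.9 normalized counts, followed by *Fzd9* at 378 ± 43.6, *Fzd8* at 159.7 ± 9.52 and *Fzd3* at 139 ± 14.3 (SD, n = 3 each). *Fzd4*, *Fzd5* and *Fzd10* lay at 39.1, 20.5 and 13.5 per kb. *Fzd1* itself averaged 2432 ± 71.0 (SD) across the 3 wild-type libraries and 2594 ± 320.0 across the 3 dKO libraries, with overlapping genotypes. Estimates pointed both ways, with 3 receptors positive and 4 negative, although *Fzd5* and *Fzd10* turned positive under quantile normalization.

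*Fzd8* (GSMG0018041, chromosome 18 from 9212856 to 9218137, plus strand) had 930.2, 1019 and 914 normalized counts in wild-type libraries 1 to 3 and 1174, 1137 and 1265 in dKO libraries 1 to 3. No wild-type library reached the lowest dKO library. With *Rspo2*, it had the smallest adjusted p of the members (log2 fold change 0.32, standard error 0.094, adjusted p = 0.318 from limma), and its unadjusted P stayed under 0.05 in all 21 alternatives. *Fzd3*, which is needed for the growth of major axon tracts in the forebrain, had 1914, 1844 and 1568 normalized counts in wild-type libraries 1 to 3 and 2199, 1985 and 2292 in dKO libraries 1 to 3. The genotypes did not overlap, with wild-type library 3 the lowest (log2 fold change 0.28, standard error 0.10, adjusted p = 0.368 from limma). *Fzd4*, the Norrin receptor of vessels, averaged 262 ± 3.02 (SD) across the 3 wild-type libraries and 226 ± 23.9 across the 3 dKO libraries, and every dKO library lay below every wild-type library (log2 fold change -0.22, adjusted p = 0.571 from limma). *Fzd9* had -0.29 with overlapping genotypes (adjusted p = 0.476 from limma). *Fzd1*, *Fzd5* and *Fzd10* had log2 fold changes of 0.086, -0.055 and -0.10, the latter 2 turning positive under quantile normalization.

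Both co-receptors lay higher in every dKO library than in any wild-type library. *Lrp5* had 1539.8, 1678 and 1581 normalized counts in wild-type libraries 1 to 3 and 1992, 1903 and 1850.0 in dKO libraries 1 to 3. Its dKO values lay above its wild-type values by more than the range within either genotype (log2 fold change 0.26, standard error 0.082, adjusted p = 0.337 from limma). *Lrp6* had 797, 762 and 690.0 normalized counts in wild-type libraries 1 to 3 and 984, 846 and 835 in dKO libraries 1 to 3. It was highest in dKO library 1 (log2 fold change 0.24, standard error 0.11, adjusted p = 0.425 from limma), and its unadjusted P was under 0.05 in 10 of the 21 alternatives, against 20 for *Lrp5*. Per kb of exon, *Lrp5* lay at 164 ± 7.28 and *Lrp6* at 54.8 ± 3.99 normalized counts in wild-type cortex (SD, n = 3 each). Without both libraries numbered 1, the estimates were 0.20 for *Lrp5* and 0.21 for *Lrp6*.

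The secreted inhibitors bind Wnts or their co-receptors outside the cell. *Sfrp1*, a soluble Frizzled-related protein of ventricular zone progenitors, had the highest level per kb of this role, at 1753 ± 147 normalized counts in wild-type cortex (SD, n = 3). It had 7455, 8386 and 7155 normalized counts in wild-type libraries 1 to 3 and 9202, 8497 and 8576 in dKO libraries 1 to 3. The genotypes did not overlap, but the lowest dKO library lay only slightly above wild-type library 2 (log2 fold change 0.19, standard error 0.083, adjusted p = 0.409 from limma). *Sfrp2* averaged 938 ± 99.1 (SD) across the 3 wild-type libraries and 971 ± 156 across the 3 dKO libraries, and *Dkk3*, a divergent member of the Dickkopf family, 1177 ± 158 (SD) across the 3 wild-type libraries and 1039.5 ± 146 across the 3 dKO libraries, both with overlapping genotypes (log2 fold changes 0.042 and -0.18). *Dkk1*, a Lrp5/6 antagonist, had 4, 6 and 0 reads in wild-type libraries 1 to 3 and 2, 0 and 0 in dKO libraries 1 to 3, and was not tested.

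The R-spondins, secreted proteins that raise Wnt receptor levels by way of Lgr receptors, had the widest differences each way of the members with a mean above 100 normalized counts. *Rspo2* (GSMG0013923, chromosome 15 from 43020794 to 43170828, minus strand) had 393, 391 and 376 normalized counts in wild-type libraries 1 to 3 and 289, 309.5 and 234 in dKO libraries 1 to 3. The wild-type libraries lay close together, and all dKO libraries lay below them (log2 fold change -0.49, standard error 0.14, adjusted p = 0.318 from limma). *Rspo3* had 151, 274 and 185 normalized counts in wild-type libraries 1 to 3 and 343, 233 and 305 in dKO libraries 1 to 3. Wild-type library 2 lay above dKO library 2, so that the genotypes overlapped (log2 fold change 0.55, standard error 0.23, adjusted p = 0.399 from limma). Its 95% interval was 0.050 to 1.06, and its estimate ran from 0.24 to 0.79 over the 21 alternatives, with an unadjusted P under 0.05 in 13.

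The ratio of *Rspo2* to *Rspo3* normalized counts, chosen after the values were seen and given with no test, was 2.60, 1.43 and 2.03 in wild-type libraries 1 to 3 and 0.841, 1.33 and 0.768 in dKO libraries 1 to 3. The lowest wild-type ratio lay just above the highest dKO ratio. Exons of *Gm48159*, annotated on the opposite strand, cover 13.1% of the exonic bases of *Rspo3*, and the strand setting of the counting is not given in the sources used here, so that reads of the pair could be mixed. The same holds for the members with larger overlaps. These cover 18.3% of the exonic bases of *Dvl2*, 17.8% of *Fzd5*, 16.1% of *Sfrp2*, 14.6% of *Ctnnb1* and 13.7% of *Lef1*. *Lgr4*, an R-spondin receptor with the highest level per kb of this role (78.1 ± 11.3 in wild-type, SD, n = 3), had 533, 402 and 444 normalized counts in wild-type libraries 1 to 3 and 505, 425 and 450.0 in dKO libraries 1 to 3. Its genotypes overlapped throughout, with a log2 fold change of 0.0065 (95% interval -0.30 to 0.31) that turned negative with DESeq2. *Lgr5*, a target and receptor of the pathway in stem cells, had only 8 to 28 reads per library and an estimate of -0.96 with a 95% interval of -2.12 to 0.20.

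**Figure D3:**
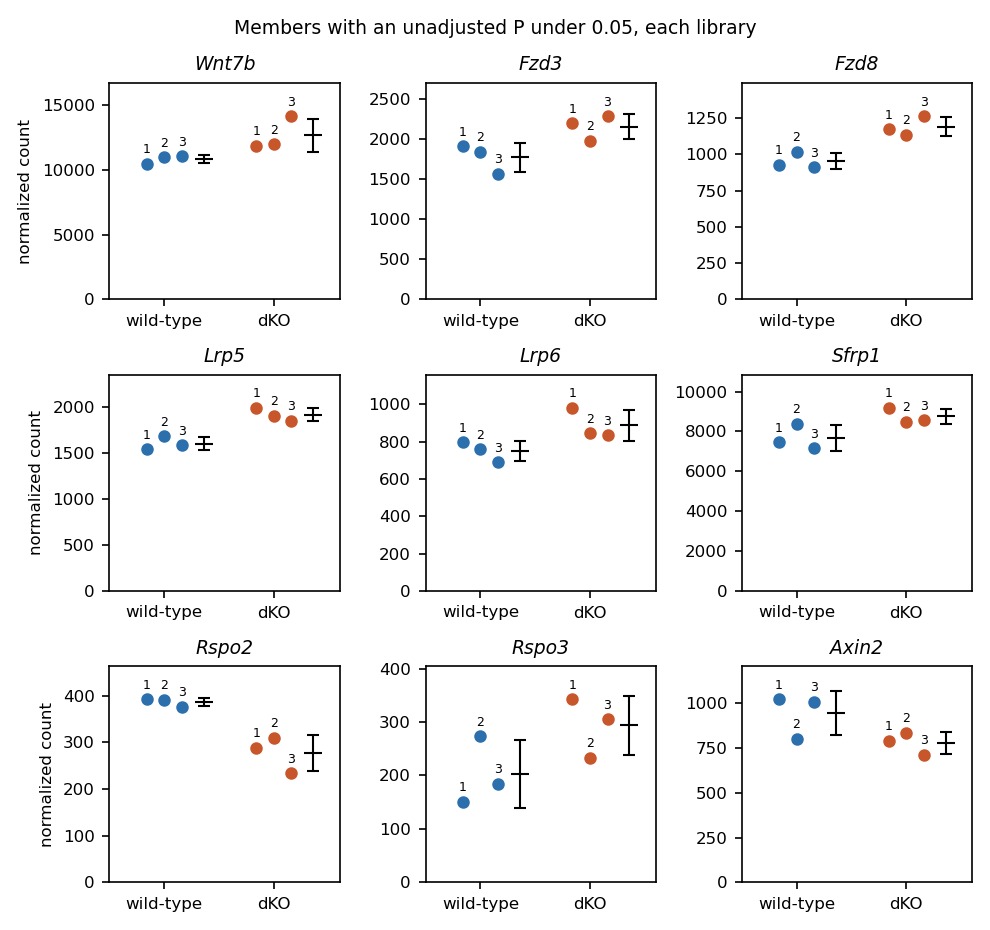
Normalized counts (vertical axes, from 0) of the 9 members with an unadjusted P under 0.05 in each library, with points numbered by library and bars for the mean and SD of 3 libraries. *Rspo2* lies between 234 and 309.5 in dKO and between 376 and 393 in wild-type libraries, whereas *Rspo3* and *Axin2* overlap between the genotypes.

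*Znrf3* encodes a ubiquitin ligase that removes Frizzled receptors from the membrane and is itself induced by Wnt signalling. It had 76.1, 77.3 and 69.3 normalized counts in wild-type libraries 1 to 3 and 78.0, 99.3 and 84.7 in dKO libraries 1 to 3. The dKO libraries lay above the wild-type libraries, with dKO library 1 within 1 normalized count of wild-type library 2 (log2 fold change 0.23, standard error 0.22, adjusted p = 0.701 from limma). The 3 Dishevelled genes, which relay the signal from Frizzled, all had intervals within 1.5-fold. *Dvl3*, the highest of them per kb at 634 ± 8.73 (wild-type, SD, n = 3), had 4108, 4087 and 4002 normalized counts in wild-type libraries 1 to 3 and 4911, 4306 and 4525 in dKO libraries 1 to 3. Every dKO library lay above the wild-type libraries (log2 fold change 0.17, standard error 0.078, adjusted p = 0.440 from limma). *Dvl2* and *Dvl1* overlapped between the genotypes and had log2 fold changes of 0.19 and -0.18. The annotated exons of *Acadvl* on the opposite strand cover 18.3% of the exonic bases of *Dvl2*.

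The destruction complex holds the scaffolds Axin and Apc and the kinase Gsk3b. *Axin1* had the highest wild-type level per kb, 371 normalized counts, within the spread of *Gsk3b* at 364 ± 48.9 (SD, n = 3). *Axin1* had 1474, 1343 and 1444 normalized counts in wild-type libraries 1 to 3 and 1662, 1488 and 1598 in dKO libraries 1 to 3. The lowest dKO library lay above the highest wild-type library by a small margin (log2 fold change 0.16, standard error 0.087, adjusted p = 0.511 from limma). *Axin2*, which replaces Axin1 in the complex and is a general transcriptional target of the pathway, had 1023, 801 and 1009 normalized counts in wild-type libraries 1 to 3 and 791, 836 and 713 in dKO libraries 1 to 3. Wild-type library 2 lay within the dKO range, and wild-type libraries 1 and 3 lay above it (log2 fold change -0.27, standard error 0.12, adjusted p = 0.427 from limma). *Gsk3b* and *Apc* had log2 fold changes of 0.19 and 0.10 and overlapped. All 4 genes of the complex had 95% intervals within 1.5-fold.

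Of the nuclear effectors, *Ctnnb1*, the gene of beta-catenin, had the highest level per kb at 1734 ± 33.7 in wild-type cortex (SD, n = 3). It had 9187, 8983 and 8838 normalized counts in wild-type libraries 1 to 3 and 10568, 9047 and 9318 in dKO libraries 1 to 3. dKO library 2 lay within the wild-type range (log2 fold change 0.096, standard error 0.080, adjusted p = 0.656 from limma), and exons of *Ulk4* on the opposite strand cover 14.6% of its exonic bases. The DNA binding partners of beta-catenin lay far lower, with wild-type levels per kb of 22.5 for *Tcf7l1*, 13.6 for *Lef1* and 8.23 for *Tcf7l2*. *Tcf7l2* averaged 72.2 ± 26.8 (SD) across the 3 wild-type libraries and 93.6 ± 2.90 across the 3 dKO libraries, with wild-type library 1 above all dKO libraries (log2 fold change 0.43, adjusted p = 0.560 from limma). *Lef1* had -0.20 and *Tcf7l1* -0.025, both with overlapping genotypes, and the sign for *Tcf7l1* turned under quantile normalization. These genes encode the end of the pathway, but messenger RNA does not report the stability or location of beta-catenin protein.

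A further 73 genes of the pathway were taken from a fixed list, of which 62 were tested. At an adjusted P under 0.05, limma and edgeR called 0 of them and DESeq2 called 1, *Celsr1*. At an unadjusted P under 0.05 there were 7 (11.3%) with limma, of which 3 had positive and 4 negative estimates, and the genotypes did not overlap in 9 (14.5%). These shares lay near or below the 11.5% and 16.4% of all features. The count of 7 was 4 without wild-type library 1, 2 without wild-type library 3, 4 without dKO library 1 and 3 without both libraries numbered 1, where the shares of all features were 8.10, 7.35, 11.9 and 9.37%. It was 4 under quantile normalization (all features, 1903 of 18970) and 4 without wild-type library 3 and dKO library 2 (7.10%). The count was 10 without wild-type library 2 (14.3%) and 10 without dKO library 2 (12.2%). The median log2 fold change of the 62 was 0.0034. All 5 feedback targets of this list had negative estimates, and in 4 of them every dKO library lay below every wild-type library (all features, 8.48%). The list was chosen with earlier results of these data known, so these counts are a description and not a test. For *Sp5*, among these 4, the separation rests on the size factors, since wild-type library 2 and dKO library 2 both had 18 reads. Of the 3 members described above as targets of the pathway, *Znrf3* lay above in every dKO library (0.23). *Axin2* (-0.27) and *Lgr5* (-0.96) had negative estimates with overlapping genotypes.

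*Nkd1*, a Dishevelled-binding inhibitor induced by Wnt signalling, had 322, 364 and 409 normalized counts in wild-type libraries 1 to 3 and 269, 271 and 317 in dKO libraries 1 to 3 (log2 fold change -0.35, standard error 0.14, adjusted p = 0.396 from limma). *Tnfrsf19*, a target gene also known as Troy, had 885, 832 and 844 normalized counts in wild-type libraries 1 to 3 and 684, 758 and 754 in dKO libraries 1 to 3 (log2 fold change -0.22, standard error 0.097, adjusted p = 0.419 from limma). *Apcdd1*, a membrane-bound inhibitor, had 6159, 5481 and 5709 normalized counts in wild-type libraries 1 to 3 and 4608, 5240.2 and 5441 in dKO libraries 1 to 3 (log2 fold change -0.18, standard error 0.088, adjusted p = 0.454 from limma). In each of these 3 genes the highest dKO library lay below the lowest wild-type library. *Sp5*, a transcription factor gene that responds directly to beta-catenin, was chosen after its values were seen, since its mean lies under 50. It had only 6 to 42 reads per library, with 28.5, 19.3 and 36.8 normalized counts in wild-type libraries 1 to 3 and 5.45, 18.8 and 13.9 in dKO libraries 1 to 3. Its dKO library 2 lay just below wild-type library 2 (log2 fold change -1.19, standard error 0.51, adjusted p = 0.417 from limma), although both had 18 reads. *Nkd2* had -0.27 with overlapping genotypes.

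In the planar cell polarity branch, which orients cells and axons without beta-catenin, the estimates were positive in 6 of 9 genes. *Celsr1*, an atypical cadherin of this branch, had 2120.0, 2741 and 2307 normalized counts in wild-type libraries 1 to 3 and 4122, 3047 and 3355 in dKO libraries 1 to 3. All dKO libraries lay above all wild-type libraries (log2 fold change 0.55, standard error 0.13, adjusted p = 0.229 from limma), and DESeq2 gave an adjusted p of 0.00903, the lowest over the alternatives, with 0.628 the highest. *Vangl2*, a core polarity protein, had 2029.6, 2092 and 2108 normalized counts in wild-type libraries 1 to 3 and 2675, 2255 and 2547 in dKO libraries 1 to 3 (log2 fold change 0.26, standard error 0.087, adjusted p = 0.357 from limma). Outside this branch, *Ryk*, a Wnt receptor with a tyrosine kinase-like domain, had 2936, 3285 and 2955 normalized counts in wild-type libraries 1 to 3 and 3328, 3531 and 3527 in dKO libraries 1 to 3 (log2 fold change 0.18, standard error 0.080, adjusted p = 0.425 from limma). Neither *Vangl2* nor *Ryk* overlapped between the genotypes. *Daam2*, a formin of the polarity branch that binds Dishevelled, had -0.35 with an unadjusted P under 0.05, chosen after its values were seen, and dKO library 2 lay above wild-type library 2.

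Markers of the cell types that the dissected tissue could hold were read beside these genes, since several express Wnt pathway genes. No marker passed the adjusted threshold in limma, where *Emx1* came nearest (adjusted p = 0.0900). The 3 markers of intermediate progenitors had positive estimates, with a median of 0.89. This is the value of *Neurog1*, which had only 2 to 34 reads per library and overlapping genotypes. *Eomes*, the most abundant of the 3, had 0.49 with overlapping genotypes, and *Neurog2* had 0.95 without overlap. Wild-type library 1 was the lowest library for all 3 markers, so that the size of their median depends in part on it. Their summed normalized counts were 1550.3, 2540.3 and 2029 in wild-type libraries 1 to 3. In dKO libraries 1 to 3 these sums were 3527, 2478 and 3009.8. Of the 8 projection neuron markers 7 were positive (median 0.24), with sums of 76858, 95083 and 69408 in wild-type libraries 1 to 3 and 100194, 75945 and 104796 in dKO libraries 1 to 3. All 10 endothelial markers were negative (median -0.17), with sums of 10659, 8915 and 11646 in wild-type libraries 1 to 3 and 9246, 10301 and 8874 in dKO libraries 1 to 3 and *Cldn5* as the most abundant. All 4 mural markers were negative too, except *Abcc9* under quantile normalization (median -0.18), with sums of 7184, 7129 and 7663 in wild-type libraries 1 to 3 and 6255, 6676 and 5186 in dKO libraries 1 to 3, led by *Rgs5*. Of the 8 meningeal markers tested 7 were negative (median -0.72), with sums over 9 genes of 999.6, 632 and 1717 in wild-type libraries 1 to 3 and 662, 647 and 607 in dKO libraries 1 to 3 and *Col1a2* as the most abundant, while *Foxc2* stayed between 0 and 7.61. The meningeal sum was highest by far in wild-type library 3, and that of wild-type library 2 lay within the dKO range. The size of this median therefore depends in part on wild-type library 3. The part of these cell types in the Wnt gene differences was not tested.

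The other 7 lists had median log2 fold changes of -0.067 for radial glia (8 markers tested), -0.089 for dentate and hippocampal cells (4 markers tested), -0.28 for thalamus (5 markers tested), 0.0070 for ganglionic eminence and striatum (10 markers tested), -0.15 for microglia (5 markers tested), 0.14 for erythroid cells (2 markers tested) and -0.011 for choroid plexus and hem (4 markers tested). Medians near 0 can hide opposed estimates. Of the 8 radial glia markers 3 were positive and 5 negative, from -0.51 for *Hes5* with overlap to 0.28 for *Pax6* without overlap. Of the 4 choroid plexus and hem markers 2 were positive and 2 negative, from -0.73 for *Clic6* to 1.53 for *Lmx1a*. *Lmx1a* had only 2 to 28 reads per library and overlapping genotypes. The choroid plexus marker *Ttr* stayed between 1.90 and 14.0 normalized counts and *Gbx2* of the thalamus between 0 and 4.64.

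The members lie on 17 chromosomes, and none of the 38 lies within 10 Mb of a targeted gene. On chromosome 15, *Wnt7b* lies 16.4 Mb and *Rspo2* 25.8 Mb from *Khdrbs3*, and on chromosome 4 *Dvl1* lies 26.1 Mb from *Khdrbs1*. Of the other pathway genes, *Rspo1* and *Wnt4* lie 4.69 and 7.54 Mb from *Khdrbs1*, with unadjusted p = 0.724 and 0.0887 from limma, and *Celsr1* lies 16.8 Mb from *Khdrbs3*. The 35 members tested have a median exonic length of 5192 bases, beside 4488 for the features tested with a length. With the dependence on length removed from each library, 10 members had an unadjusted P under 0.05 (all features, 12.7%), 9 did not overlap (17.4%) and 0 were called by limma.

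Promoters of RefSeq (build GRCm38.p6, 300 bases each) were matched by symbol for 26 of the 41 members, with 34 promoters. The core letters bound by Tcf/Lef factors, CTTTGA or CTTTGT on either strand, were in 10 of these 34 (29.4%), beside 31.2% of the 32851 promoters of all genes and 23.6% of the 72 of the other pathway genes. Of the 9 members with an unadjusted P under 0.05, 1 had a promoter here, *Axin2*, without these letters in its window. A match is a description of the sequence and not evidence of a binding site. The promoters in the table for *Sp5* (chr2:70474673-70474972, plus strand, 5 matches), *Tnfrsf19* (chr14:61037938-61038237, minus strand, 1 match, and chr14:61046806-61047105, minus strand, 0 matches) and *Nkd1* (chr8:88527383-88527682, plus strand, 0 matches) are shown, since all dKO libraries lay below all wild-type libraries for these target genes. That of *Axin2* (chr11:108920099-108920398, plus strand, 0 matches) is shown as the feedback gene among the 9 members. *Apcdd1* also lay below in every dKO library, and its promoter is not reported here. The *Nkd1* window lies inside the gene, which starts at 88521341, so that its match count does not cover this start. Capitals mark the core letters, and each sequence runs 5′ to 3′.
Sp5: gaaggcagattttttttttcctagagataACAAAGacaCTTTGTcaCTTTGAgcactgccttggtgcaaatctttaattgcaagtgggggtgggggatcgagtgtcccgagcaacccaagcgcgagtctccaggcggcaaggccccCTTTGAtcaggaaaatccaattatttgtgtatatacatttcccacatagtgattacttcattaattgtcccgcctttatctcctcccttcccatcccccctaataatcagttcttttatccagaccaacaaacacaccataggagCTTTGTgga
Tnfrsf19: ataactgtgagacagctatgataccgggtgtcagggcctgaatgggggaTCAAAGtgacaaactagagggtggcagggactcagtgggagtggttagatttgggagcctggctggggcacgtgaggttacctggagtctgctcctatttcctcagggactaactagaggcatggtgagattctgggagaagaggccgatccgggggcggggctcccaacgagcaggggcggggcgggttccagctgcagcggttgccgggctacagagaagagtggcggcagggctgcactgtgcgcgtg
Tnfrsf19: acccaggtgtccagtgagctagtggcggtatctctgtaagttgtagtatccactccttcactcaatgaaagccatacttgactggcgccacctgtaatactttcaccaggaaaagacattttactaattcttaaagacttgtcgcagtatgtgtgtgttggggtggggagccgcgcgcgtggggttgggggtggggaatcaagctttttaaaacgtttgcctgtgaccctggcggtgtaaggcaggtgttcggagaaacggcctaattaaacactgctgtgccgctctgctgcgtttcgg
Nkd1: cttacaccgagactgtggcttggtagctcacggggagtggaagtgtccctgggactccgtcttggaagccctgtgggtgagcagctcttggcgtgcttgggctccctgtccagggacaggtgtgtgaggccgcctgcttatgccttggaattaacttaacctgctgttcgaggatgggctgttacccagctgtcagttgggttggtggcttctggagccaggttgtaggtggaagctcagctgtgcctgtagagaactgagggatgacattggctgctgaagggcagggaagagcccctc
Axin2: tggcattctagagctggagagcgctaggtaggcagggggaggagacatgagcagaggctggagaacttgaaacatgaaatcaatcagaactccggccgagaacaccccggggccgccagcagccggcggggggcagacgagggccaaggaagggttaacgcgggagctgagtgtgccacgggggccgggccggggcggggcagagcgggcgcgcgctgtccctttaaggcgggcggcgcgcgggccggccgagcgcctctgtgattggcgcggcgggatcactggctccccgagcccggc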

How the data were processed

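Cortex libraries of 3 wild-type and 3 dKO samples were compared, grouped by the genotype in the labels. The authors deposited 1 signal value per gene and library, a read count divided by a DESeq2 size factor. The submitters' processing notes name STAR 2.7.5a, SAMtools, Picard, FastQC, DESeq2 and build mm10, and the labels name a stranded mRNA kit; the counting program and its strand setting are not given in the sources used here. Whole reads could be recovered, since every positive value lay within 0.01 read of a multiple of the smallest value of its library. Features without a symbol held 8.48 to 9.62% of reads and stayed in the tests.

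Genotypes were compared with limma 3.58.1 in R 4.3.3, with a variance trend and robust moderation, on log2 values with a pseudocount of 1, after testing on simulated data. edgeR 4.0.16 and DESeq2 1.42.0 on recovered reads, other pseudocounts, filters and scalings, the replicate number as a block, a lowess correction for exonic length (GENCODE M21) and each library left out were alternatives. Members and lists were chosen with earlier results of these data known. Library values are given for members with an unadjusted P under 0.05, with non-overlapping genotypes and a log2 difference of at least 0.25, or with the highest level per kb of their role. Of the other pathway genes, those with an adjusted P under 0.05 and the 3 largest differences each way, at a mean of at least 50 and without overlap, are named. The 12 marker lists cover the cell types named in the text. Splicing was not analysed here.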

Additional observations from a re-analysis of the deposited data

How the results depend on the processing

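No Wnt member was called by limma, edgeR or DESeq2 in any of the 21 alternatives, and 24 of the 35 members kept their direction in all of them, including all 9 with an unadjusted P under 0.05. The number of features called, 19, was 7 with the plain variance model of limma, 207 with DESeq2 (62 higher and 145 lower, against 10 and 9), 5 without both libraries numbered 1 and 7 to 46 with each library left out. Wild-type library 3 and dKO library 2 were also left out together, an alternative chosen after seeing the data, which gave 8 features. The number of members with an unadjusted P under 0.05, 9, was 4 with the plain variance model (all features, 9.88%), 5 without that pair (7.10%) and 5 to 9 with each library left out (6.43 to 14.3%), of which 3, 5 and 4 to 8 were among the original 9. It was 6 under quantile normalization (all features, 1903 of 18970). The number of members without overlap, 11, was 17 without both libraries numbered 1 (all features, 41.1%), 20 without wild-type library 3 and dKO library 2 (37.8%) and 12 to 17 with each library left out (22.3 to 33.0%), as fewer samples overlap less often. With 6 libraries it was 8 under quantile normalization (14.8%), 9 with the length correction (17.4%) and 10 with TMM rescaling (16.4%). An unadjusted P under 0.05 was kept in 21 alternatives by *Rspo2*, 21 by *Fzd8*, 20 by *Lrp5*, 18 by *Fzd3*, 17 by *Wnt7b*, 13 by *Rspo3*, 12 by *Sfrp1*, 12 by *Axin2* and 10 by *Lrp6*. Of the other pathway genes DESeq2 called 1, *Celsr1*. The log2 fold change of *Khdrbs3*, -1.05, missed the threshold in limma with a plain variance model (adjusted p = 0.0891). The cause was not tested.

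With the replicate block, 9 features and 0 members were called by limma, with 9 members at an unadjusted P under 0.05 (all features, 12.2%), 7 of them among the original 9, and with the block and the length correction 12 features were called. Libraries of the same number had correlations of 0.098, -0.228 and -0.079 in their deviations from the genotype means, beside 0.205 for wild-type library 3 with dKO library 2 and 0.194 for wild-type library 2 with dKO library 3, the highest of the 9 pairs, and the numbers were not treated as pairs elsewhere.

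The 11 members whose direction turned in some alternative had small or imprecise estimates. Under quantile normalization these were *Wnt9a* (0.079), *Fzd5* (0.051), *Fzd10* (0.050) and *Tcf7l1* (0.10), and with DESeq2 *Lgr4* (-0.0014). Without both libraries numbered 1 they were *Wnt9a* (0.26) and *Wnt3* (0.013). Without wild-type library 3 and dKO library 2 they were *Wnt9a* (0.37), *Fzd5* (0.031), *Apc* (-0.0043), *Tcf7l1* (0.096) and *Lef1* (0.0018). With each library left out, the log2 fold changes ranged from -1.18 to 0.030 for *Wnt2b*, -0.018 to 0.22 for *Wnt7a*, -0.53 to 0.35 for *Wnt9a*, -0.18 to 0.15 for *Fzd5*, -0.35 to 0.090 for *Fzd10*, -0.084 to 0.13 for *Sfrp2*, -0.085 to 0.12 for *Lgr4*, -0.0085 to 0.18 for *Apc* and -0.11 to 0.065 for *Tcf7l1*. Of the other members and the 6 pathway genes named by rule, those whose value moved by over 1.5 times with a library left out ranged from -0.56 to -0.17 for *Wnt3*, -0.40 to -0.041 for *Wnt5a*, -0.41 to -0.19 for *Wnt5b*, 0.14 to 0.27 for *Wnt7b*, 0.0014 to 0.18 for *Fzd1*, -0.38 to -0.13 for *Fzd9*, -0.28 to -0.057 for *Dkk3*, 0.36 to 0.79 for *Rspo3*, -1.33 to -0.62 for *Lgr5*, 0.13 to 0.30 for *Znrf3*, -0.27 to -0.12 for *Dvl1*, 0.11 to 0.29 for *Gsk3b*, 0.029 to 0.14 for *Ctnnb1*, 0.24 to 0.71 for *Tcf7l2*, -0.42 to -0.0029 for *Lef1* and -0.23 to -0.11 for *Apcdd1*. An unadjusted P under 0.05 was found in 4 alternatives for *Apcdd1*, 8 for *Tnfrsf19* and 15 for *Nkd1*. Depth limited *Wnt3a*, *Wnt8b* and *Dkk1*, which had too few reads to test, and a mean filter of 50 gives no value for *Wnt2b*, *Wnt3*, *Fzd10* and *Lgr5*.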
